A study of Macaca mulatta with 16 samples.

Results

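The genes described here are 10 immediate early genes of fetal lung: the AP-1 subunits FOS, FOSB, FOSL1, JUN, JUNB and JUND, the related factor ATF3, the zinc finger factors EGR1 and EGR3, and the orphan nuclear receptor NR4A1. They were chosen by name, by matching rhesus Ensembl identifiers to gene symbols. No limit on their values was used, but earlier results of these data were known. All 10 had a row among the 22515 genes counted, and all 10 were among the 19199 genes tested. Lung RNA was sequenced from 16 rhesus macaque fetuses in 5 groups, each animal giving 1 library. Preterm controls (n = 4, animals 092, 101, 113 and 209) and term controls (n = 2, animals 200 and 201) received no intervention and were delivered at 131 to 135 and at 156 to 157 days of gestation. The LPS 16h group (n = 4, animals 026, 029, 035 and 038) received 1 mg of bacterial lipopolysaccharide (LPS, an endotoxin used to mimic infection of the fetal membranes) into the amniotic fluid and was delivered 16 hours later, at 130 to 131 days. The LPS 5d group (n = 3, animals 239, 240 and 242) received the same dose 5 days before delivery at 131 to 134 days. The LPS + Beta-Ac 5d group (n = 3, animals 248, 249 and 255) also received betamethasone-acetate, a corticosteroid given to the dam by intramuscular injection at 0.125 mg/kg, and was delivered at 131 to 132 days. A single injection of LPS is a limited model of an infection that goes on over time, and the study's methods state that no spontaneous labor was observed in any group.

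Immediate early genes are transcribed within minutes of a signal, without any need for newly made protein, and most of their transcripts are short-lived. Fos and Jun proteins pair through leucine zippers to form AP-1, a transcription factor that acts on genes of inflammation, proliferation and matrix turnover, and EGR proteins bind GC-rich promoter elements. The same genes respond to growth factors, cytokines, stretch, hypoxia and the handling of tissue.

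Levels are given as CPM, the counts of a gene per 1000000 counts of its scaled library, in the order in which the animals of each group are listed above. A gene was called higher or lower at an adjusted p below 0.05 in limma and a change of at least 2-fold. At 16 hours after LPS, JUNB, EGR1, EGR3 and ATF3 were called higher than in preterm controls. FOSL1 was called as well, but it entered the test only through LPS 16h and had to differ. FOS (log2 fold change 2.51, adjusted p = 0.0624 in limma), JUN, JUND, FOSB and NR4A1 were not called. In term controls FOS, FOSB, JUNB, JUND and EGR1 were called higher than in preterm controls, so that JUNB and EGR1 were called in both comparisons. Term controls were not tested against LPS 16h. JUNB alone was called 5 days after LPS, and no member was called after LPS + Beta-Ac. FOS, FOSB and EGR1 varied widely between animals of the same group, and JUN and JUNB varied with them.

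Library totals ran from 20169363 to 28348816 counts in preterm controls, from 30596371 to 48052891 in LPS 16h, from 20214144 to 27160740 in LPS 5d, from 24354892 to 27408405 in LPS + Beta-Ac 5d and from 25883623 to 27616930 in term controls. All 6 markers of lung epithelium were present in all groups, with a summed level of 5948 to 16888 CPM per animal. Because whole lung was sequenced, fewer cells of a type and less RNA per cell cannot be told apart.

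**Figure D1:**
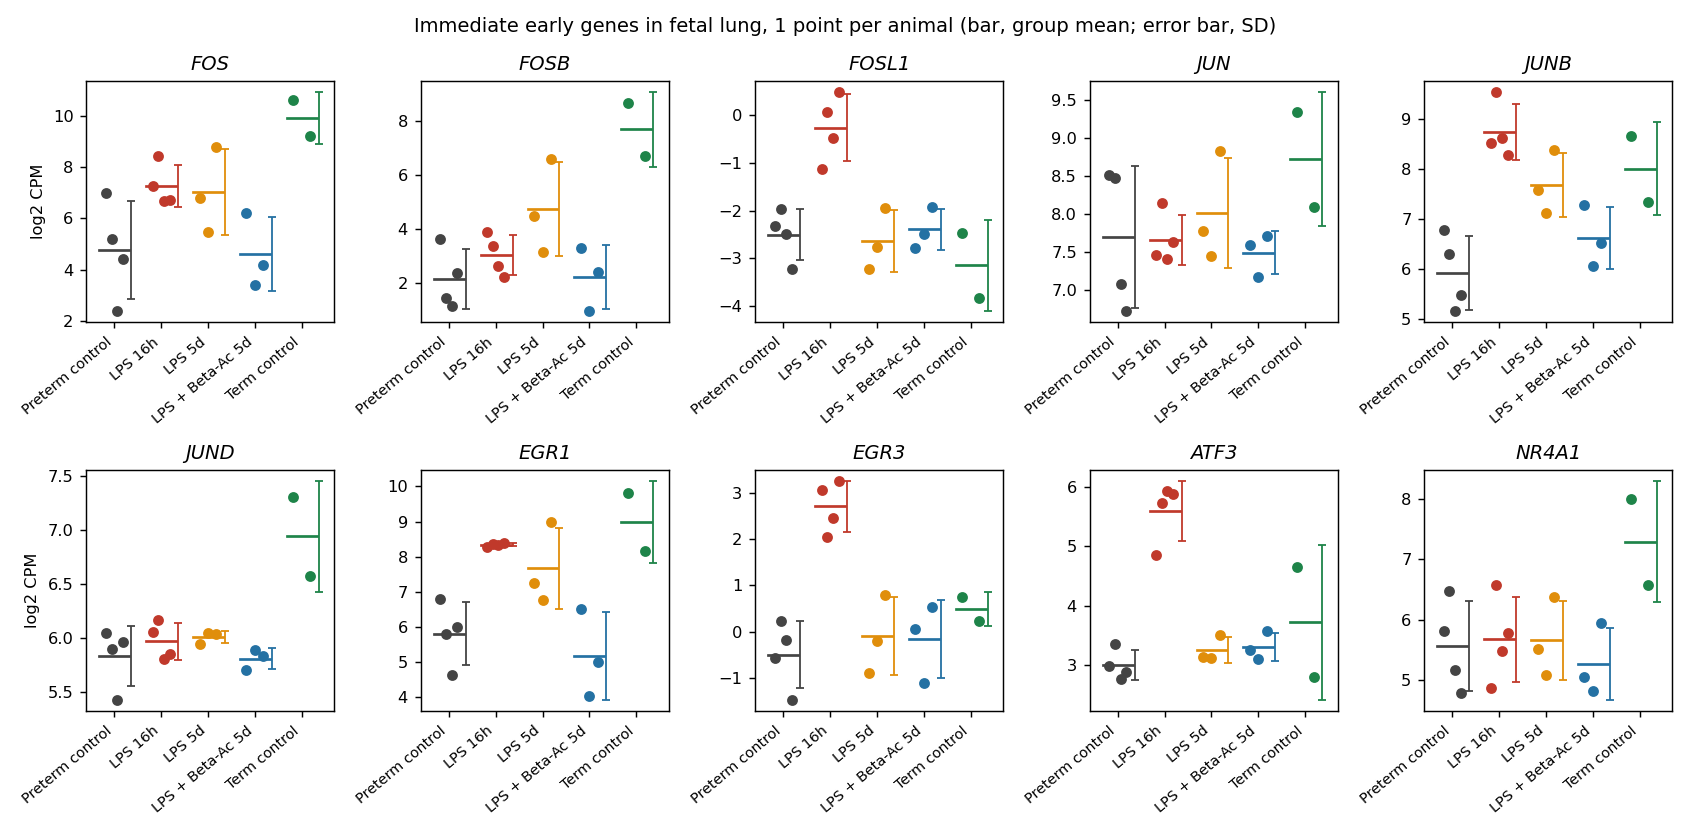
Log2 CPM of the 10 immediate early genes in 5 groups of fetal lungs. Each point is 1 animal, each horizontal bar the group mean and each error bar the SD; the vertical scales differ between panels. EGR3 and ATF3 lie highest in the 4 LPS 16h animals, while FOS and FOSB lie highest in the 2 term controls.

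FOS (ENSMMUG00000040100), a subunit of AP-1, was at 128, 36.6, 5.11 and 21.4 CPM in preterm controls. It reached 151, 344, 102 and 104 CPM 16 hours after LPS and 1581 and 587 CPM in term controls. Both term animals lay above all 14 others, whereas the preterm range reached into that of LPS 16h through animal 092. FOS was 35.8-fold higher in term than in preterm controls (log2 fold change 5.16, SE 1.21, adjusted p = 0.0361). The difference at 16 hours did not pass the threshold (log2 fold change 2.51, SE 0.987, adjusted p = 0.0624), although it did without preterm control 092 (adjusted p = 0.0165) and with limma-voom (adjusted p = 0.0482). In LPS 5d the level was 112, 43.8 and 442 CPM, and in LPS + Beta-Ac 5d it was 73.6, 10.6 and 18.2 CPM. Both ranges overlapped that of preterm controls, and neither difference was called (log2 fold change 2.27, 95% interval -0.05 to 4.59, adjusted p = 0.189 for LPS 5d; log2 fold change -0.15, 95% interval -2.46 to 2.17, adjusted p = 0.95 for LPS + Beta-Ac 5d).

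FOSB (ENSMMUG00000014430) encodes a Fos subunit that is best known from neurons, where a truncated form accumulates under repeated stimulation. Preterm controls were at 12.2, 2.59, 2.13 and 4.99 CPM and term controls at 403 and 104 CPM. The lower term animal was above each of the 14 preterm animals, treated or not. The difference between term and preterm controls was 46.8-fold (log2 fold change 5.55, SE 0.963, adjusted p = 0.00943), the largest fold change of any member in a comparison with preterm controls. At 16 hours after LPS the animals were at 14.6, 10.3, 6.03 and 4.59 CPM, a range that overlapped the preterm controls (log2 fold change 0.89, 95% interval -0.80 to 2.59, adjusted p = 0.402). At 5 days they were at 22.3, 8.64 and 95.6 CPM, with animal 242 far above the rest. That difference was not called (log2 fold change 2.60, SE 0.849, adjusted p = 0.0571), but passed without preterm control 092 (adjusted p = 0.0366) or without LPS 5d animal 240 (adjusted p = 0.0315). After LPS + Beta-Ac the level was 9.72, 1.85 and 5.24 CPM, with animals 248 and 255 within the preterm range and animal 249 just under it.

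FOSL1 (ENSMMUG00000008653), the Fos-related antigen associated with invasive and stressed epithelium, was close to the limit of detection. Its counts were 1 to 4 per library in preterm controls, and 1 term control had a count of 0, which allows up to 3 counts. The LPS 16h animals had 11 to 46 counts, at 0.390, 0.984, 0.649 and 1.34 CPM against 0.131, 0.185, 0.106 and 0.0364 CPM in preterm controls. No animal outside LPS 16h reached the floor of 0.371 CPM, so the gene entered the test only through the group in which it was high and had to differ there. It was called in limma (log2 fold change 2.25, SE 0.478, adjusted p = 0.00172), a fold change that depends on the count added before taking logs. Pooled over animals, the ratio of LPS 16h to preterm controls was 7.75 (exact 95% interval 4.18 to 15.9, counting error only).

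JUN (ENSMMUG00000059326), which can form AP-1 with Fos proteins or with itself, was at 368, 357, 136 and 105 CPM in preterm controls and 176, 282, 169 and 198 CPM at 16 hours. All 4 LPS 16h animals lay within the range of the preterm controls. The difference was not called (log2 fold change -0.04, 95% interval -0.97 to 0.88, adjusted p = 0.951). Animals of LPS 5d had 219.8, 174 and 455 CPM, those of LPS + Beta-Ac 5d 192, 145 and 210.0 CPM, and term controls 653 and 274 CPM. None of these groups was separate from preterm controls, where animals 092 and 101 were more than 2-fold above animals 113 and 209. The term difference was 1.02 on the log2 scale and not called (95% interval -0.11 to 2.16, adjusted p = 0.322).

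JUNB (ENSMMUG00000005688), a Jun protein that competes with JUN for partners and is a target of STAT3 signaling, was at 109, 78.3, 35.7 and 44.4 CPM in preterm controls. Every LPS 16h animal was higher, at 364, 739, 389 and 310.0 CPM. The difference was 6.99-fold (log2 fold change 2.81, SE 0.431, adjusted p = 0.000174). At 5 days after LPS the level was still above all preterm controls at 189.5, 138 and 331 CPM, and the 3.38-fold difference was called (log2 fold change 1.76, SE 0.465, adjusted p = 0.0216). That call was lost without preterm control 113 (adjusted p = 0.0615), LPS 5d animal 239 (adjusted p = 0.0516) or LPS 5d animal 242 (adjusted p = 0.0957). LPS + Beta-Ac 5d animals, at 156, 67.0 and 91.5 CPM, overlapped the preterm controls (log2 fold change 0.70, 95% interval -0.30 to 1.70, adjusted p = 0.346). Term controls were at 404 and 163 CPM, above all preterm controls (log2 fold change 2.08, SE 0.528, adjusted p = 0.0443). JUNB was thus the member called in the largest number of comparisons with preterm controls, 3 of 4.

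JUND (ENSMMUG00000038371), the Jun protein that is expressed in resting cells and responds least to stimuli, was the steadiest member. Preterm controls had 66.0, 59.7, 42.9 and 62.3 CPM, and LPS 16h animals had 66.5, 72.0, 55.8 and 57.7 CPM. LPS 5d animals, at 61.4, 66.0 and 65.5 CPM, and LPS + Beta-Ac 5d animals, at 52.1, 59.3 and 57.0 CPM, fell in the same band. The 95% intervals of the log2 fold change against preterm controls were -0.20 to 0.47 for LPS 16h, -0.19 to 0.54 for LPS 5d and -0.39 to 0.34 for LPS + Beta-Ac 5d. Term controls stood apart at 159 and 95.4 CPM, a 2.16-fold difference (log2 fold change 1.11, SE 0.193, adjusted p = 0.00761).

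ATF3 (ENSMMUG00000012185), a stress-induced factor that pairs with Jun proteins and restrains inflammatory genes, was at 7.84, 10.1, 6.71 and 7.29 CPM in preterm controls. At 16 hours after LPS it was at 28.8, 52.7, 61.0 and 59.0 CPM, so that the lowest LPS 16h animal, 026, was above every preterm control. The difference was 6.08-fold (log2 fold change 2.61, SE 0.324, adjusted p = 1.81e-05). By 5 days the level was 8.75, 8.60 and 11.2 CPM after LPS and 9.46, 8.52 and 11.8 CPM after LPS + Beta-Ac. Both overlapped preterm controls (log2 fold change 0.26, 95% interval -0.49 to 1.01, adjusted p = 0.689 for LPS; log2 fold change 0.31, 95% interval -0.43 to 1.06, adjusted p = 0.602 for LPS + Beta-Ac). The term animals disagreed, with 24.9 and 6.86 CPM. Animal 200 was above all preterm controls and animal 201 was within their range, and the term difference was called only without animal 201 (adjusted p = 0.0267, against 0.35 with it).

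EGR1 (ENSMMUG00000055069), a growth factor and stretch response factor, was at 111, 55.7, 24.5 and 63.5 CPM in preterm controls. The LPS 16h animals were all within 1.07-fold of each other, at 311, 330.5, 320.4 and 332 CPM, while their FOS levels covered a 3.38-fold range. Every one of them was above every preterm control (5.80-fold; log2 fold change 2.54, SE 0.614, adjusted p = 0.00552). LPS 5d animals had 152, 108 and 504 CPM, of which only animal 240 was under the highest preterm control, and the difference was not called (log2 fold change 1.86, SE 0.664, adjusted p = 0.0809). LPS + Beta-Ac 5d animals had 91.2, 16.1 and 31.4 CPM, which overlapped preterm controls (log2 fold change -0.63, 95% interval -2.07 to 0.80, adjusted p = 0.578). Term controls were at 905 and 287 CPM (log2 fold change 3.19, SE 0.753, adjusted p = 0.0354).

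EGR3 (ENSMMUG00000058396), which lies downstream of calcium and growth factor signals in lymphocytes and nerve, was at 0.610, 1.11, 0.816 and 0.291 CPM in preterm controls, or 8 to 24 counts per library. LPS 16h animals were at 8.20, 4.04, 5.42 and 9.48 CPM, or 152 to 326 counts. No LPS 16h animal overlapped any animal of the other 4 groups. The difference from preterm controls was 9.12-fold (log2 fold change 3.19, SE 0.454, adjusted p = 5.86e-05), the largest of the called members at 16 hours. Levels were 0.472, 0.806 and 1.66 CPM in LPS 5d, 0.980, 0.399 and 1.39 CPM in LPS + Beta-Ac 5d and 1.62 and 1.10 CPM in term controls. These 3 groups were not called against preterm controls (adjusted p = 0.657, 0.71 and 0.368).

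NR4A1 (ENSMMUG00000022922), a nuclear receptor without a known need for ligand that limits macrophage activation, was at 56.1, 89.2, 35.8 and 27.5 CPM in preterm controls and 29.0, 95.1, 44.6 and 54.8 CPM at 16 hours. These ranges were nearly the same (log2 fold change 0.11, 95% interval -0.89 to 1.11, adjusted p = 0.871). LPS 5d animals had 45.8, 33.7 and 82.8 CPM, and LPS + Beta-Ac 5d animals had 32.9, 27.9 and 61.5 CPM, also overlapping preterm controls. Term controls, at 259 and 95.8 CPM, lay above all 14 other animals, but the difference was not called (log2 fold change 1.74, SE 0.569, adjusted p = 0.109).

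**Figure D2:**
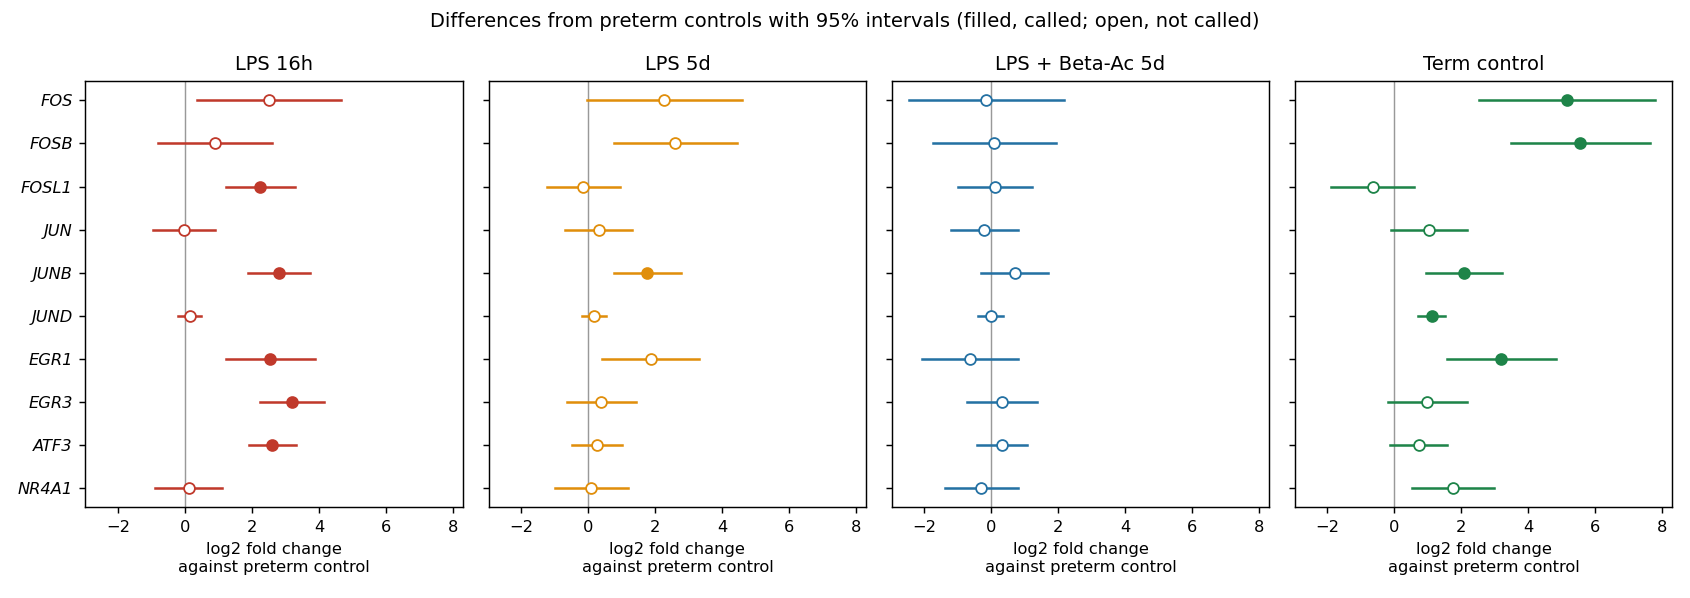
Log2 fold change of each member against preterm controls with its 95% interval, for LPS 16h, LPS 5d, LPS + Beta-Ac 5d and term controls. Filled points passed the threshold and open points did not; 5, 1, 0 and 5 members are filled from left to right, and the intervals of FOS are the widest in every panel.

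Set side by side, the comparisons with preterm controls did not call the same members. Term controls were not tested against LPS 16h, so a difference between these groups was not tested. The comparisons share the same 4 preterm control animals, so they are not independent of each other. At 16 hours, 5 of 10 members were called higher, where 8.25% of all tested genes were called higher and 6.11% lower, and the median log2 fold change of the members was 2.38 against -0.09 over all genes. In 5 members, every LPS 16h animal was above every preterm control, as in 16.9% of all genes. FOSL1 is among them, and the reservation on its filter applies. The 5 calls held under the 8 alternative settings tried and when any 1 animal was left out.

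In LPS 5d, 1 of 10 members, JUNB, was called higher, where 2.6% of all genes were called higher and 2.23% lower. The median log2 fold change of the members was 0.36. In LPS + Beta-Ac 5d no member was called in limma, none reached an unadjusted p below 0.05 and none was called by limma-voom, where 4.05% of all genes were called higher and 2.44% lower. The intervals were wide for the most variable genes: that of FOS in LPS + Beta-Ac 5d still covered a log2 fold change of 2.17.

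In term controls, 5 of 10 members were called higher, where 1.11% of all genes were called higher and 0.953% lower. Both term animals were above all preterm controls in 6 members, the 5 called and NR4A1, as in 11.2% of all genes. The term group holds only 2 animals, and all 10 members were higher in animal 200 than in animal 201. Without animal 200 none of the 5 was called (adjusted p = 0.242 for FOS, 0.115 for FOSB, 0.336 for JUNB, 0.117 for JUND and 0.272 for EGR1), with the remaining term animal assumed to vary like the other groups. Its log2 fold changes remained positive, at 4.45 for FOS, 4.57 for FOSB, 1.42 for JUNB, 0.74 for JUND and 2.36 for EGR1. Without animal 201, FOS was not called (adjusted p = 0.0908). Preterm controls mattered too: FOS, JUNB and EGR1 were not called without animal 101 (adjusted p = 0.061, 0.0613 and 0.0639). Without animal 113, FOS, JUNB and EGR1 were not called (adjusted p = 0.0681, 0.104 and 0.0761) and JUND fell below 2-fold (log2 fold change 0.97), and without animal 209 JUNB was not called (adjusted p = 0.0582).

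Adding Beta-Ac to LPS changed no member past the threshold: 0 of 10 were called in limma and 0 by limma-voom, with 2 members, FOSB and EGR1, at an unadjusted p below 0.05. Across all genes 0.0885% were called higher and 0% lower. EGR1 was lower in each LPS + Beta-Ac 5d animal than in each LPS 5d animal (log2 fold change -2.49, 95% interval -4.03 to -0.96, adjusted p = 0.383). The share of all genes that separate these animals was not computed, so the separation cannot be weighed against it. FOSB was lower on average, with overlapping animals (log2 fold change -2.51, 95% interval -4.47 to -0.56, adjusted p = 0.713), and FOS was too (log2 fold change -2.41, 95% interval -4.89 to 0.07, adjusted p = 1). JUND also did not overlap between these groups, but the difference was small (log2 fold change -0.20, 95% interval -0.59 to 0.19, adjusted p = 1).

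Between the LPS groups at 16 hours and 5 days, EGR3 and ATF3 were called higher at 16 hours, where 7.93% of all genes were called higher and 6.66% lower. FOSL1 was called as well, but it entered the test only through LPS 16h and had to differ. EGR3 was 6.93-fold higher at 16 hours (log2 fold change 2.79, SE 0.49, adjusted p = 0.000422), ATF3 5.08-fold (log2 fold change 2.35, SE 0.35, adjusted p = 0.000118). For FOSL1 the pooled counts gave a ratio of 9.08 (exact 95% interval 4.27 to 23.1, counting error only). JUNB was 2.07-fold higher at 16 hours, with overlapping animals and no call (log2 fold change 1.05, SE 0.465, adjusted p = 0.0981). FOS, EGR1 and JUN overlapped between the times (log2 fold change 0.24, 95% interval -2.08 to 2.56, adjusted p = 0.887 for FOS; log2 fold change 0.68, 95% interval -0.76 to 2.11, adjusted p = 0.467 for EGR1; log2 fold change -0.36, 95% interval -1.36 to 0.64, adjusted p = 0.589 for JUN). FOSB had the opposite sign and was not called (log2 fold change -1.71, SE 0.849, adjusted p = 0.138), except without LPS 5d animal 240 (adjusted p = 0.0453).

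In the order of group means, LPS 16h was highest for FOSL1, JUNB, EGR3 and ATF3, and term controls were highest for FOS, FOSB, JUN, JUND, EGR1 and NR4A1. For EGR3 and ATF3 the LPS 16h animals did not overlap the group next in order, and for FOS, FOSB, JUND and NR4A1 the term animals did not. The margin for NR4A1 was narrow, 95.8 CPM in term control 201 against 95.1 CPM in LPS 16h animal 029. FOSL1 was separate too, but it entered the test only through LPS 16h and had to differ. The share of all genes that separate in this way was not computed. The leading groups of JUN, EGR1 and JUNB overlapped the next group.

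The spread between animals of one group was large for most members. The SD within groups, pooled over the 5 groups with 11 degrees of freedom, was 1.47 log2 units for FOS, 1.21 for FOSB and 0.94 for EGR1. Over all tested genes the median was 0.28, and 98.3% of genes had a smaller SD than FOS, 97.2% a smaller SD than FOSB and 94.4% a smaller SD than EGR1. NR4A1, EGR3, JUNB, JUN and FOSL1 followed at 0.73, 0.71, 0.67, 0.67 and 0.64, and ATF3 at 0.51. JUND, at 0.24, was below the median gene. Between the lowest and highest of the 16 animals FOS differed 309-fold and FOSB 218-fold, against 3.69-fold for JUND. Among the preterm controls alone, which received no intervention, FOS differed 25.1-fold between animals 113 and 092.

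**Figure D3:**
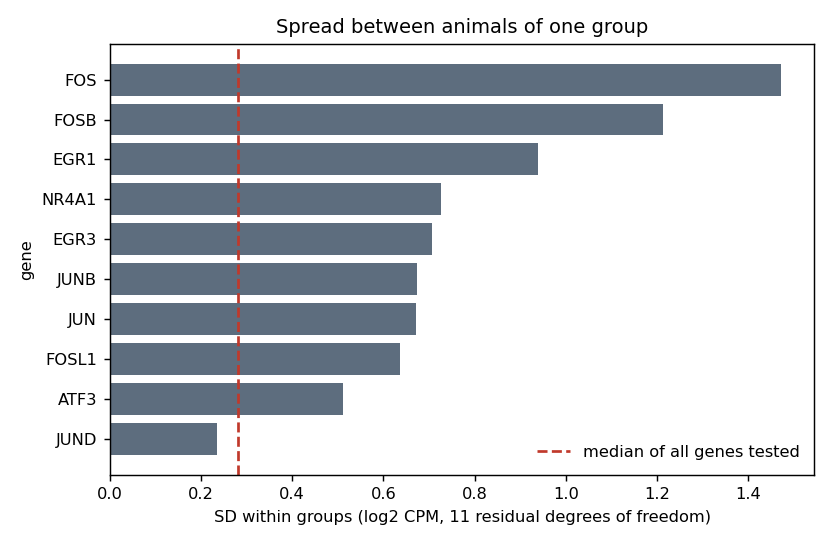
SD within groups of each member in log2 CPM, with the median of all tested genes as a dashed line. FOS, FOSB and EGR1 have the longest bars, and JUND is the only member under the line.

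The animals highest in FOS in their group were also highest in some other members, to a differing extent. In LPS 5d, animal 242 was highest of 3 in 9 of 10 members, JUND being the exception. In preterm controls, animal 092 was highest of 4 in 6 members (FOS, FOSB, JUN, JUNB, JUND and EGR1). In LPS 16h, animal 029 was highest of 4 in 5 members (FOS, JUN, JUNB, JUND and NR4A1). Animal 029 was lowest of its group in EGR3, at 4.04 CPM. In LPS + Beta-Ac 5d, animal 248 was highest in 4 members (FOS, FOSB, JUNB and EGR1) and animal 249 was lowest of 3 in 8. These animals were picked by their FOS level, and FOS is included in each count. With so few animals per group, some members would share a highest animal without any relation. The share of all genes highest in each animal was not computed.

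After each group's mean was subtracted, the deviations of JUNB followed those of FOS most closely over the 16 animals (Pearson's r = 0.93, Spearman's rho = 0.94; permutation within groups, two-sided, adjusted p = 0.0009 and 0.00117). EGR1 (r = 0.90, rho = 0.85, adjusted p = 0.00409 and 0.00646 by permutation) and FOSB (r = 0.85, rho = 0.92, adjusted p = 0.00486 and 0.00238 by permutation) came next. JUN was also related (r = 0.78, rho = 0.81, adjusted p = 0.0118 and 0.00646 by permutation). For NR4A1 and JUND the relation did not pass (r = 0.55 and 0.54, rho = 0.55 and 0.54, adjusted p = 0.0924 for both r and 0.0954 for both rho by permutation). ATF3, FOSL1 and EGR3 had the weakest relation to FOS (r = 0.31, 0.27 and 0.20, rho = 0.42, 0.25 and 0.26, adjusted p of r = 0.228, 0.384 and 0.561 and of rho = 0.199, 0.435 and 0.435 by permutation). In all 9 pairs were tested, and p-values were adjusted over them. Without the 2 animals farthest from the median in FOS, 092 and 113, r was 0.92 for JUNB, 0.88 for EGR1, 0.86 for FOSB and 0.72 for JUN, and it fell to 0.28 for JUND. The animals of a group share no batch label, so the relation could not be recomputed within batches.

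**Figure D4:**
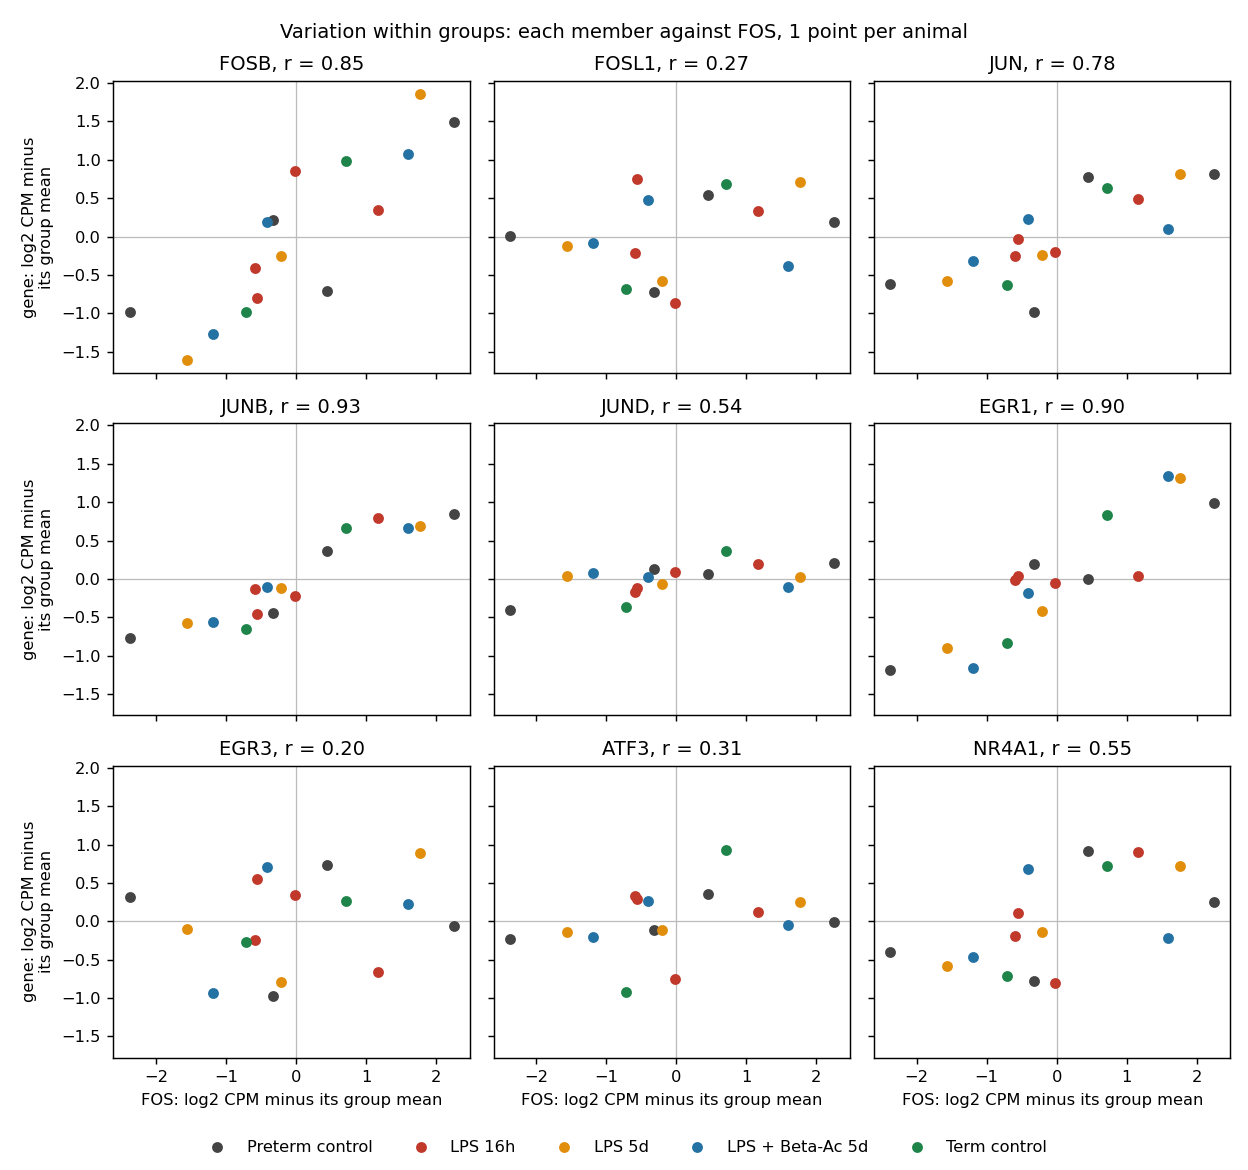
Deviation of each member from its group mean in log2 CPM (vertical) against that of FOS (horizontal), 1 point per animal, coloured by group. JUNB, EGR1, FOSB and JUN rise with FOS in panels headed r = 0.93, 0.90, 0.85 and 0.78, while EGR3, FOSL1 and ATF3 scatter.

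Levels of marker and stress genes also differed between groups, and did not follow the members in every group. Of all genes, 8.25% were called higher in LPS 16h, 2.6% in LPS 5d, 4.05% in LPS + Beta-Ac 5d and 1.11% in term controls. Called lower were 2.44% in LPS + Beta-Ac 5d and 0.953% in term controls. Of 8 neutrophil and monocyte markers, 5 were called higher at 16 hours, and their summed level was 2031 to 2844 CPM in LPS 16h against 84.0 to 243.9 CPM in preterm controls. It was 259 to 273 CPM in term controls, where 3 of 8 were called higher. In LPS 5d it was 181 to 211 CPM, and 3 of 8 were called higher. In LPS + Beta-Ac 5d, where no member was called, it was 317 to 555 CPM, and 6 of 8 markers were called higher. None of these markers was at 0 in a whole group. Of 6 macrophage markers, 4 were called higher at 16 hours, with a summed level of 137 to 273 CPM against 53.2 to 77.7 CPM in preterm controls, where MARCO was at 0. In LPS 5d 4 of 6 were called higher and in LPS + Beta-Ac 5d 6 of 6, with a sum of 259 to 495 CPM in the latter. In term controls the sum was 90.9 and 212 CPM, and 0 of 6 were called in limma or limma-voom, although 6 had an unadjusted p below 0.05. Among the other markers in term controls, 2 of 4 for fibroblasts were called lower, the collagens COL1A1 and COL1A2. So were 1 of 4 endothelial markers, the cadherin CDH5, and 1 of 5 smooth muscle markers, the actin ACTA2. The summed fibroblast markers, which include both collagens, were at 3712 to 4209 CPM in term against 6468 to 11471 CPM in preterm controls. COL1A1 and COL1A2 were also called lower in LPS + Beta-Ac 5d. The part of these cell types in the results for the members was not tested. Of 7 heat shock genes, 3 were called higher at 16 hours (HSPA8, HSPH1 and HSPD1), with a summed level of 3086 to 4790.4 CPM against 1670.5 to 2482 CPM in preterm controls. In term controls the sum was 2348 to 2596 CPM and 0 of 7 were called in limma, with 0 at an unadjusted p below 0.05 and 0 called by limma-voom. Of 11 hypoxia genes, 3 were called higher at 16 hours and 0 in term controls (0 also by limma-voom, and 2 with an unadjusted p below 0.05). The hypoxia genes summed to 2602 CPM in term control 200, the animal with the highest FOS, and to 1882 CPM in term control 201, against 1718 to 1852 CPM in preterm controls. In LPS 16h they summed to 1593 to 1916 CPM, which overlapped preterm controls. Yet 8 of the 11 had an unadjusted p below 0.05 in limma at 16 hours. The median log2 fold change of the 11 was 0.88 there, against -0.09 over all genes, so the sums do not show the changes of single genes. The animals highest in FOS in their group differed in these sums. LPS 5d animal 242 had 1747 CPM of hypoxia genes and 1905 CPM of heat shock genes, each the lowest of its group. LPS 16h animal 029 had the highest heat shock sum of its group, 4790 CPM, and term control 200 the higher term sum, 2596 CPM. Preterm control 092 (1815 CPM) and LPS + Beta-Ac 5d animal 248 (2142 CPM) lay within the heat shock ranges of their groups. For hypoxia genes, animals 092, 248 and 029 lay within their groups' ranges, at 1838, 1739 and 1878 CPM. The part of tissue handling in the spread was not tested, and the sources used here do not give the times from delivery to freezing.

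At 16 hours 8.25% of all genes were called higher and 6.11% lower, and in term controls 1.11% and 0.953%. These shares also apply to the lists that follow. Among 13 other AP-1 partners, 6 were called higher at 16 hours and none lower, and the median log2 fold change was 0.69. The largest were BATF (log2 fold change 5.20, SE 0.401, adjusted p = 1.06e-07) and BATF3 (log2 fold change 3.82, SE 0.275, adjusted p = 5.18e-08), factors of lymphoid and dendritic cells, followed by FOSL2, a Fos relative (log2 fold change 1.81, SE 0.141, adjusted p = 1.21e-07). BATF averaged 0.301 ± 0.121 CPM (SD, n = 4) in preterm controls, near the floor, so its fold change depends on the count added. BATF and BATF3 were still called higher in LPS 5d and LPS + Beta-Ac 5d. In term controls 0 of 13 were called in limma, with 5 at an unadjusted p below 0.05 and 0 called by limma-voom.

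Among 18 other immediate early genes tested, 6 were called higher and 1 lower at 16 hours. IER3, an anti-apoptotic factor, rose most (log2 fold change 4.05, SE 0.384, adjusted p = 1.51e-06), then the relatives of the members NR4A3 (log2 fold change 3.01, SE 0.352, adjusted p = 8.81e-06) and EGR2 (log2 fold change 2.99, SE 0.388, adjusted p = 2.69e-05), and CSRNP1 (log2 fold change 2.37, SE 0.181, adjusted p = 9.37e-08). NR4A3 was at 31.6, 14.6, 47.7 and 43.8 CPM against 3.48, 5.74, 3.98 and 2.66 CPM in preterm controls, whereas NR4A1 did not separate these groups. EGR2 was at 16.0, 20.9, 19.3 and 23.5 CPM against 4.01, 2.59, 2.06 and 1.60 CPM, so that it was separate like EGR1 and EGR3. ARC, named after its value was seen, was called lower (log2 fold change -1.72, SE 0.265, adjusted p = 0.00012). In term controls, 1 of 18 was called, NR4A2 (log2 fold change 1.66, SE 0.419, adjusted p = 0.0404), at 42.4 and 20.5 CPM against 12.1, 13.4, 7.06 and 6.38 CPM. In LPS 5d, 1 was called, the antiproliferative gene BTG2 (log2 fold change 1.23, SE 0.343, adjusted p = 0.027). In LPS + Beta-Ac 5d, CCN2 and GEM were called lower.

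Among 13 feedback inhibitors, 4 were called higher at 16 hours. They were ZFP36, which hastens the decay of cytokine and immediate early transcripts (log2 fold change 3.81, SE 0.419, adjusted p = 8.68e-06), the phosphatases DUSP5 (log2 fold change 1.97, SE 0.261, adjusted p = 2.94e-05) and DUSP2 (log2 fold change 1.55, SE 0.232, adjusted p = 8.93e-05), and ERRFI1, an inhibitor of EGF receptor signaling (log2 fold change 1.41, SE 0.219, adjusted p = 0.000146). DUSP6 and DUSP10 were called lower in LPS 5d. In term controls and in LPS + Beta-Ac 5d, 0 of 13 were called in limma, and 0 by limma-voom, while 3 and 4 had an unadjusted p below 0.05. Of 20 kinases and factors upstream of the members, 0 were called in limma or limma-voom in any of the 6 comparisons, with 10 at an unadjusted p below 0.05 in LPS 16h and 4 in term controls against preterm controls. RNA levels of kinases do not report their activity.

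Of 17 genes described as AP-1 or EGR targets, 12 were called higher and 1, CCND1, lower at 16 hours. In LPS 5d 3 were called higher in limma, where 2.6% of all genes were, and 3 were called by limma-voom. In LPS + Beta-Ac 5d, where no member was called, 6 targets were called higher in limma and 5 were called by limma-voom. There 4.05% of all genes were called higher. In term controls 4 were called higher in limma, and 0 by limma-voom. At 16 hours CXCL8 averaged 576 ± 253 CPM (SD, n = 4) against 0.204 ± 0.160 CPM, IL6 174 ± 61.7 CPM against 0.0937 ± 0.103 CPM, MMP9 202 ± 36.1 CPM against 0.477 ± 0.294 CPM and MMP1 68.9 ± 46.8 CPM against 1.07 ± 0.276 CPM in preterm controls (SD, n = 4). The 4 in term controls were MMP9, at 105 and 3.20 CPM in animals 200 and 201, CXCL8, at 8.31 and 2.20 CPM, IL6, at 1.03 and 0.744 CPM, and HMOX1. These genes answer to many factors, and neutrophils and macrophages also express several of them.

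**Figure D5:**
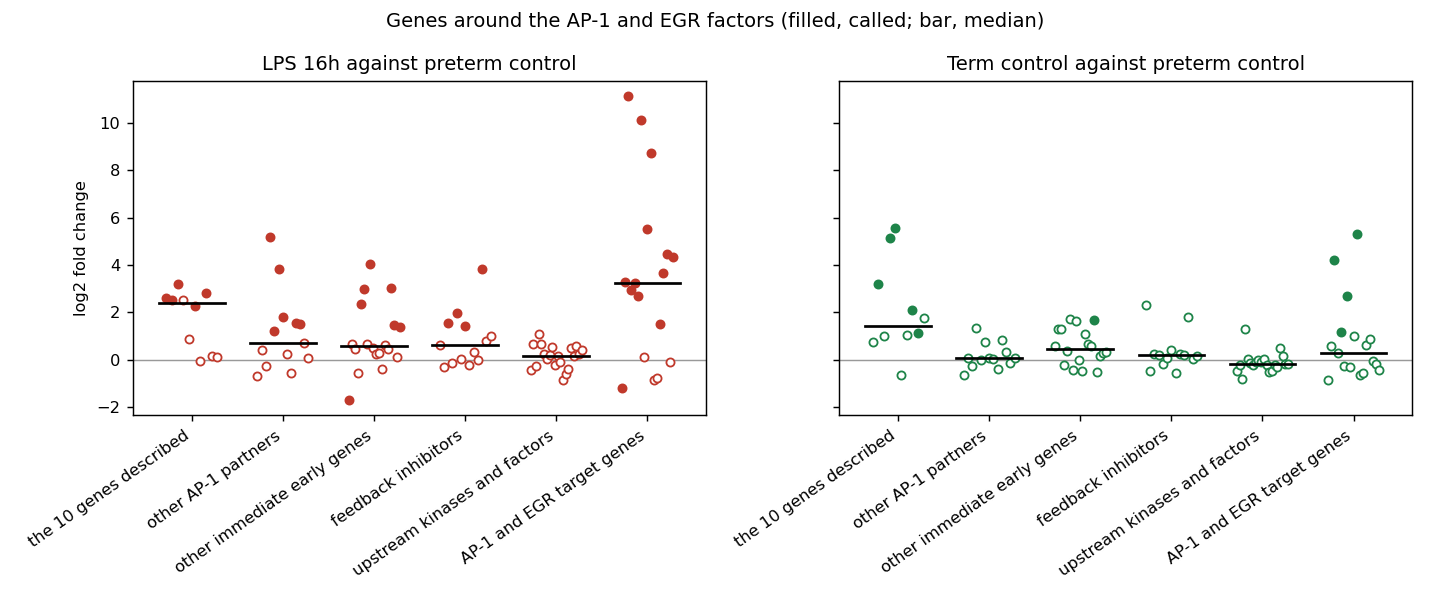
Log2 fold change against preterm controls of the 10 members and of 5 lists of genes around them, for LPS 16h (left) and term controls (right). Each point is 1 gene, filled if called, and each bar is the median of the list. In both panels 5 members are filled, but the lists hold 28 genes called higher in LPS 16h and 5 in term controls, 4 of which are target genes that limma-voom did not call.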

How the data were processed

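Fetal lung RNA of 16 animals was analysed. The authors extracted total RNA, sequenced 75 bp paired-end reads after polyA selection, assigned them with kallisto to the rhesus build Mmul_10, collapsed transcripts to genes with tximport and compared groups with DESeq2. The sources used here give neither the versions nor the annotation release. The deposited values were raw whole counts, 1 per gene and animal, without normalization, and their unit was recorded as other because the layout of the deposited table could not be read as counts by the automatic unit check. A test for counts had been planned, and limma took its place. No sample column was left without an animal (0 columns).

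Gene symbols came from a table of identifiers that paired 17256 of 22515 identifiers with a symbol. Counts were scaled by TMM (30% of log ratios and 5% of mean values trimmed) and expressed as log2 CPM after adding a prior count of 2. Genes were tested if 2 or more animals reached 0.371 CPM, equal to 10 counts in a library of median size, and if the animals summed to 15 counts or more (19199 genes). A model with 1 mean per group over all 16 animals was fitted with limma 3.58.1 (trend and robust options, R 4.3.3), and p-values were adjusted over all tested genes by the Benjamini-Hochberg method. Replicates were separate animals, and groups came from the labels. Relations within groups used 100000 permutations of animals within groups (Python 3.11.15). The scripts were tested on simulated data with known changes. The alternatives were median-of-ratios scaling, library totals only, no filter, a prior count of 0.5, limma-voom, an adjusted p alone, only the groups compared, leaving out preterm control 209 with term control 200, and leaving out each animal.

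The members and the lists around them were chosen with earlier results of these data known. All 10 members were named, and from each list up to 4 called genes per comparison, the largest log2 fold change first. The result of 1 gene that this rule names is not reported here. HSPE1 and BNIP3 matched several rows and were left out of their lists; IER2, MAP2K7, HSPA1A and HSPA1B were not analysed here. The reference table available is of another assembly than Mmul_10, so no coordinates are given. Levels were not compared between genes, because no gene lengths of that build were used.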

Additional observations from a re-analysis of the deposited data

Results flagged for a closer look

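The effect of LPS differed between 16 hours and 5 days for EGR3 and ATF3, by a direct test of the difference between the LPS groups in limma. FOSL1 was called too, with the reservation given below. The log2 difference, 16 hours minus 5 days, was 2.39 for FOSL1, 2.79 for EGR3 and 2.35 for ATF3. For EGR3 and ATF3 all 4 animals at 16 hours were above all 3 animals at 5 days. The share of all genes that separate these groups was not computed. FOSL1 had 1 to 4 counts per library at 5 days, so its fold depends on the count added before taking logs, and none of the 12 animals outside LPS 16h reached the floor, so that it entered the test through LPS 16h alone and had to differ. No animal in the preterm control or LPS 16h group, the groups of 4, stood apart from the others of its group in any member by Dixon's criterion at the 95% level; the smaller groups were not examined in this way.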

How the results depend on the processing

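Each called difference of a member kept its direction under every alternative. Of the refitted log2 fold changes of single members, 793 kept their direction and side of the threshold, 27 no longer passed, 6 newly passed and 60 changed sign. The sign changes fell on 23 of the 60 differences, none of which was called with all animals, and no refit with a changed sign was called (lowest adjusted p = 0.698 in limma). In LPS 5d against preterm controls, 1 member was called, and 0 to 2 when 1 animal was left out. In term against preterm controls, 5 members were called, 0 when the 2 groups were fitted alone, 0 without preterm control 209 and term control 200, and 0 to 5 when 1 animal was left out. In LPS 16h against preterm controls, 5 members were called, and 6 with limma-voom or without preterm control 092. Between LPS 16h and LPS 5d, 3 were called, and 4 without LPS 5d animal 240. FOSL1, which entered the test only through LPS 16h, is counted in both of these comparisons. The counts of 0 in the comparisons with LPS + Beta-Ac 5d did not change. All 18 recomputed relations with FOS kept their sign and their side of the threshold. Fitted alone, the term comparison gave adjusted p = 0.133 for FOS, 0.0532 for FOSB, 0.147 for JUNB, 0.0797 for JUND and 0.105 for EGR1. Scaling by library totals alone shifted the median of all genes by -0.20 in LPS 16h against preterm controls and by -0.19 against LPS 5d, and the calls among members were kept. FOSL1 could not be fitted where the only groups compared left it under the filter. No paired analysis was possible because the groups have no animal numbers in common. Depth limits FOSL1 and EGR3 outside LPS 16h, and the 2 term animals limit every term value.

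With median-of-ratios scaling, the log2 fold change turned to 0.0056 for JUN in LPS 16h against preterm controls and 0.0044 for JUND in LPS + Beta-Ac 5d against preterm controls. With only the groups compared, the log2 fold change turned to 0.0013 for JUN in LPS 16h against preterm controls. With library totals alone, the log2 fold change turned to -0.063 for JUND and -0.088 for NR4A1 in LPS 16h against preterm controls and -0.17 for NR4A1 in LPS 16h against LPS 5d. Without preterm control 209 and term control 200, the log2 fold change turned to -0.15 for NR4A1 in LPS 16h against preterm controls, -0.012 for JUN and -0.16 for NR4A1 in LPS 5d against preterm controls, -0.14 for FOSL1 and 0.019 for JUND in LPS + Beta-Ac 5d against preterm controls and -0.24 for ATF3 in term against preterm controls. When 1 animal was left out, the log2 fold change ran from -0.37 to 0.23 for JUN and from -0.16 to 0.42 for NR4A1 in LPS 16h against preterm controls. It ran from -0.50 to 0.17 for FOSL1, from -0.090 to 0.63 for JUN, from -0.047 to 0.82 for EGR3 and from -0.26 to 0.41 for NR4A1 in LPS 5d against preterm controls. It ran from -0.94 to 0.60 for FOS, from -0.43 to 0.75 for FOSB, from -0.14 to 0.32 for FOSL1, from -0.54 to 0.064 for JUN, from -0.16 to 0.054 for JUND, from -0.022 to 0.82 for EGR3 and from -0.64 to 0.011 for NR4A1 in LPS + Beta-Ac 5d against preterm controls. It ran from -1.33 to 0.034 for FOSL1 and from -0.20 to 1.65 for ATF3 in term against preterm controls. It ran from -0.044 to 0.61 for FOSL1, from -0.46 to 0.40 for EGR3 and from -0.074 to 0.18 for ATF3 in LPS + Beta-Ac 5d against LPS 5d. It ran from -0.54 to 1.13 for FOS, from -0.65 to 0.046 for JUN, from -0.11 to 0.0088 for JUND and from -0.28 to 0.37 for NR4A1 in LPS 16h against LPS 5d.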

Other observations

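Likeness was measured against genes outside the 10 members. Over the log2 CPM of the 16 animals, the gene of this kind most like FOS was DUSP1, a phosphatase that ends MAP kinase signals (Pearson's r = 0.88), then BTG2 (r = 0.85) and NR4A2 (r = 0.84). Among the members themselves, EGR1 (r = 0.93) and FOSB (r = 0.88) were at least as like FOS. These values are descriptions over animals that share groups, with no test. DUSP1 was at 1200.4 and 789 CPM in the term controls and at 473, 418, 74.7 and 98.0 CPM in preterm controls 092, 101, 113 and 209, with no call in that comparison (adjusted p = 0.073 in limma). BTG2, NR4A2 and DUSP1 were also among the 5 genes outside the members most like JUN, led by DUSP1 (r = 0.87), and NR4A2 was the one most like EGR1 (r = 0.83) and NR4A1 (r = 0.85). The member pairs JUN and NR4A1 (r = 0.89) and JUNB and EGR1 (r = 0.87) were closer than these.

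Again outside the members, JUNB was most like SOCS3, an inhibitor of JAK and STAT signals (r = 0.93), and ZFP36 (r = 0.90). ATF3 was most like VMP1 (r = 0.96), TRIB1 (r = 0.96) and the cytokine LIF (r = 0.95), and EGR3 was most like MXD1 (r = 0.95), ERO1B (r = 0.95) and the chemokine CXCL3 (r = 0.93). After group means were subtracted, BTG2 was the gene outside the members most like FOS (r = 0.88) and JUNB (r = 0.92), and ZFP36 the one most like JUN (r = 0.95), while FOS and JUNB were more like each other (r = 0.93). The lists of the 5 genes most like ATF3 on the 2 scales differ in their leading genes: after group means were subtracted, TSPAN15 came first.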
